A study of Homo sapiens with 6 samples.

Results

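The miR-30 family was examined through 10 mature names, out of 1727 known mature miRNA names counted in the series. The 5p names were hsa-miR-30a-5p, hsa-miR-30b-5p, hsa-miR-30c-5p, hsa-miR-30d-5p and hsa-miR-30e-5p. The 3p names were hsa-miR-30a-3p, hsa-miR-30d-3p, hsa-miR-30e-3p, hsa-miR-30c-1-3p and hsa-miR-30c-2-3p. The prefix for human is left out below. They were looked up by name in the deposited count tables, and all 10 were present in all 6 libraries. Small RNA was sequenced from BEAS-2B cells, an established line of human bronchial epithelial cells, 48 h after treatment with a plasmid. The PRMT1 group (n = 3) received pcDNA-PRMT1, which over-expresses the arginine methyltransferase PRMT1. The control group (n = 3) received the plasmid pcDNA3.1. All 6 libraries come from this 1 cell line, and the labels do not say whether the 3 libraries of a group are separate cultures, so p-values measure the spread between libraries, which may be technical. The level of PRMT1 itself was not among the small RNA features and was not checked here.

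A miRNA is cut from a hairpin whose 5p and 3p arms can each be loaded into an Argonaute protein, and the loaded strand finds its target messenger RNAs mainly through its seed, bases 2 to 8. The 5p arms of miR-30 share 1 seed and are the usual guide strands. The family is known for restraining genes of the epithelial-mesenchymal transition and of fibrosis, such as SNAI1 and the connective tissue growth factor gene CCN2, and it is abundant in many epithelia, lung among them. The 3p arms have other seeds and so other target sites.

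Of the 10 names, 7 had a sequence in the RefSeq miRNA table (GRCh38.p14). The 5p sequences are shown because they carry the common seed, in capitals, and differ only behind it.
miR-30a-5p: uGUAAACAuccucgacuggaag
miR-30e-5p: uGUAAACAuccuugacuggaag
miR-30c-5p: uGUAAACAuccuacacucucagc
The 4 3p sequences at hand are shown because they fall into 2 pairs, each with 1 seed, again in capitals, and the names within a pair are close enough to share reads.
miR-30a-3p: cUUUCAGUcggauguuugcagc
miR-30e-3p: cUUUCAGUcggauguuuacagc
miR-30c-2-3p: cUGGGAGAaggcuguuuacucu
miR-30c-1-3p: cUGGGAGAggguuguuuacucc

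Counted from the 5′ end, miR-30a-5p and miR-30e-5p differ by the single substitution C13U, and their 3p arms by the single substitution G18A. The miR-30c-1 and miR-30c-2 3p arms differ by G9A, U12C and C22U. From the first 12 bases, miR-30c-5p cannot be told apart from miR-30a-5p, and over 22 bases it differs from it at 5 positions. Names this close could share reads, and how reads with several matches were divided is not given in the sources used here, so the 5p names in particular are not separate observations. The seed GUAAACA occurred in 3 of 2370 names of the RefSeq table, all of them members. That table lacks miR-30b-5p and miR-30d-5p, so the count is incomplete and cannot show that the seed is confined to the family.

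The hairpins of miR-30e (chromosome 1, 40754355 to 40754446, plus strand, GRCh38) and miR-30c-1 (chromosome 1, 40757284 to 40757372, plus strand) lie 2837 bases apart in introns of NFYC, a subunit gene of the transcription factor NF-Y. Those of miR-30c-2 (chromosome 6, 71376960 to 71377031, minus strand) and miR-30a (chromosome 6, 71403551 to 71403621, minus strand) lie 26519 bases apart in introns of the long non-coding RNA gene LINC00472. The mature miR-30c-5p sequence is the same from either locus, so its counts cannot be assigned to one of them, whereas miR-30c-1-3p and miR-30c-2-3p are counted apart. MiR-30b and miR-30d form the other cluster of the family.

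Libraries held 23.95 M to 25.79 M counts, of which 11.54 M to 16.42 M fell on known mature miRNAs. Control library 2 stood apart, with miR-21-5p at 66.0% of known miRNA counts against 49.4% to 59.1% in the other 5 libraries. Its TMM factor, the library scaling of edgeR, was 0.761, against 0.986 to 1.11 in the others. Levels are given below as TMM-scaled CPM, counts scaled to a library of 1000000 known miRNA counts after this correction. To look at the cell label, lists of cell type markers were read, and 7 of 7 epithelial markers (the miR-200 family, miR-205 and miR-203a) were detected. So was every marker of the blood, endothelial, fibroblast and smooth muscle, muscle, liver and neural lists. Detection alone therefore cannot check the label. The epithelial markers summed to 8170 to 8815 CPM before TMM scaling in PRMT1 libraries and 7674 to 10057 CPM in control libraries. Most of that sum came from miR-200a-3p, miR-429 and miR-200b-3p, with TMM-scaled means over the 6 libraries of 4009, 2371 and 2230 CPM. MiR-200c-3p, miR-141-3p, miR-205-5p and miR-203a-3p were low, at 48.3, 20.4, 6.37 and 3.26 CPM. Markers of skeletal and cardiac muscle summed to 9.77 to 12.9 CPM in PRMT1 and 10.5 to 13.1 CPM in control libraries. Those of blood summed to 78.0 to 102 CPM in PRMT1 and 57.4 to 144 CPM in control libraries. Neural markers summed to 195 to 289 CPM in PRMT1 and 183 to 225 CPM in control libraries. Fibroblast and smooth muscle markers reached at most 37.6 CPM, and the liver marker at most 1.65 CPM, in any library. The endothelial marker miR-126, both arms summed, stood higher, at 1701 to 2383 CPM in PRMT1 and 1576 to 2106 CPM in control libraries, and its part in the results was not tested. The smallest count of any member in any library was 101, against a limit of 3 counts that a count of 0 allows.

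The 10 names together made up less than 1 in 100 known miRNA counts. Their sum was 0.415%, 0.455% and 0.304% of known miRNA counts in PRMT1 libraries 1 to 3, against 0.358%, 0.268% and 0.443% in control libraries 1 to 3. The groups overlapped, with the lowest share in control library 2 and the next lowest in PRMT1 library 3. The mean share was 0.392% ± 0.0782 in PRMT1 and 0.356% ± 0.0872 in control libraries (SD, n = 3 each), a difference smaller than the spread between libraries. In such bulk libraries, fewer cells that express a miRNA and less of it per cell cannot be told apart. Each of these shares had a 95% Wilson interval at most 0.00766 percentage points wide, so counting error, the only error this interval covers, was far below the spread between libraries. With miR-21-5p left out of the total, the share was 0.934% ± 0.195 in PRMT1 and 0.810% ± 0.0573 in control libraries, still overlapping. All these shares leave out the reads counted in the Rfam precursor row of mir-30, described under other observations.

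Within the family, miR-30b-5p, miR-30a-3p, miR-30c-5p, miR-30d-5p and miR-30a-5p formed an upper tier, with means over the 6 libraries of 804, 744, 676, 630.1 and 576 CPM in that order. Neighbours in this tier overlapped in range, and their order held in 4 or 5 of 6 libraries, so it is not fixed beyond the spread. Below a gap of 3.73-fold, which held in 6 of 6 libraries, stood miR-30e-3p at 154 CPM. After a further gap of 3.35-fold came miR-30c-2-3p at 46.1, miR-30e-5p at 37.6, miR-30d-3p at 22.7 and miR-30c-1-3p at 10.1 CPM. MiR-30e-5p overlapped both of its neighbours in this order. MiR-30b-5p held 24.7%, 20.3% and 25.0% of the counts of the 10 names in PRMT1 libraries 1 to 3 and 22.9%, 18.1% and 20.1% in control libraries 1 to 3. The 5p arms together held 76.0% ± 6.59 of family counts in PRMT1 and 69.9% ± 3.85 in control libraries (SD, n = 3 each), with overlapping groups. The 7 names with a sequence at hand were 22 or 23 bases long, and no length term was used. The lengths of the other 3 were not seen. Whether every sequence entered the libraries equally well was not tested, so comparisons between names and arms are of counts. Reads in the Rfam precursor row, described under other observations, are left out of these levels and shares.

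**Figure D1:**
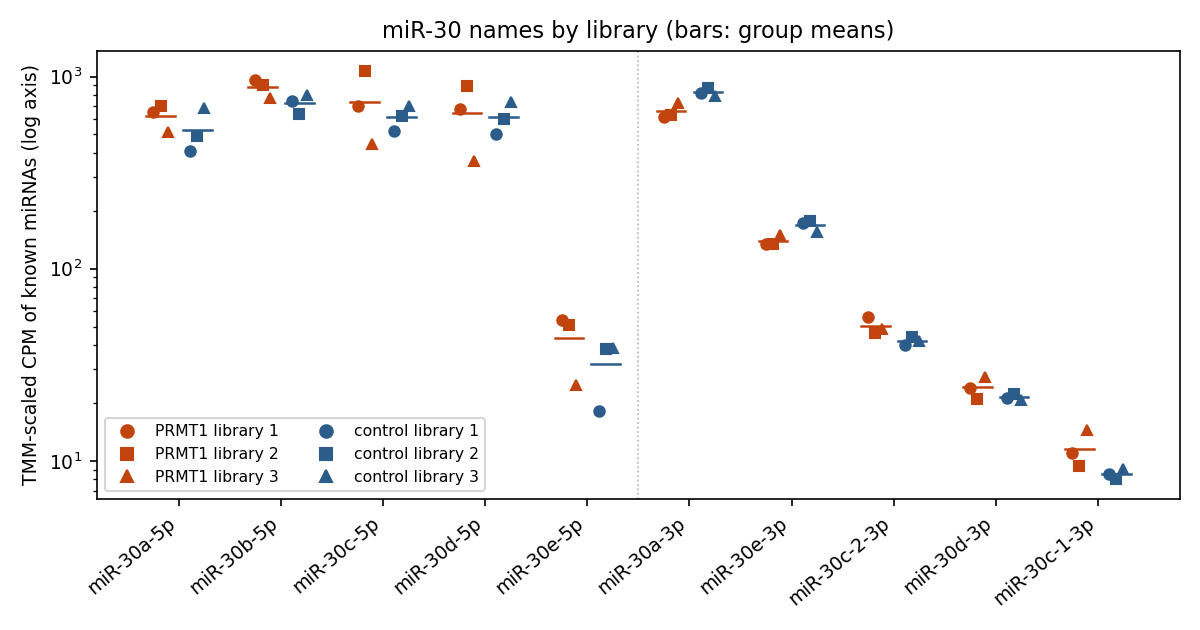
TMM-scaled CPM (log axis) of each miR-30 name in each library, with PRMT1 libraries left of control libraries and short bars at group means (n = 3). MiR-30a-3p and the 5p names other than miR-30e-5p lie in 1 upper tier, and miR-30e-5p lies with the minor 3p arms at 18.3 to 54.1 CPM.

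**Figure D2:**
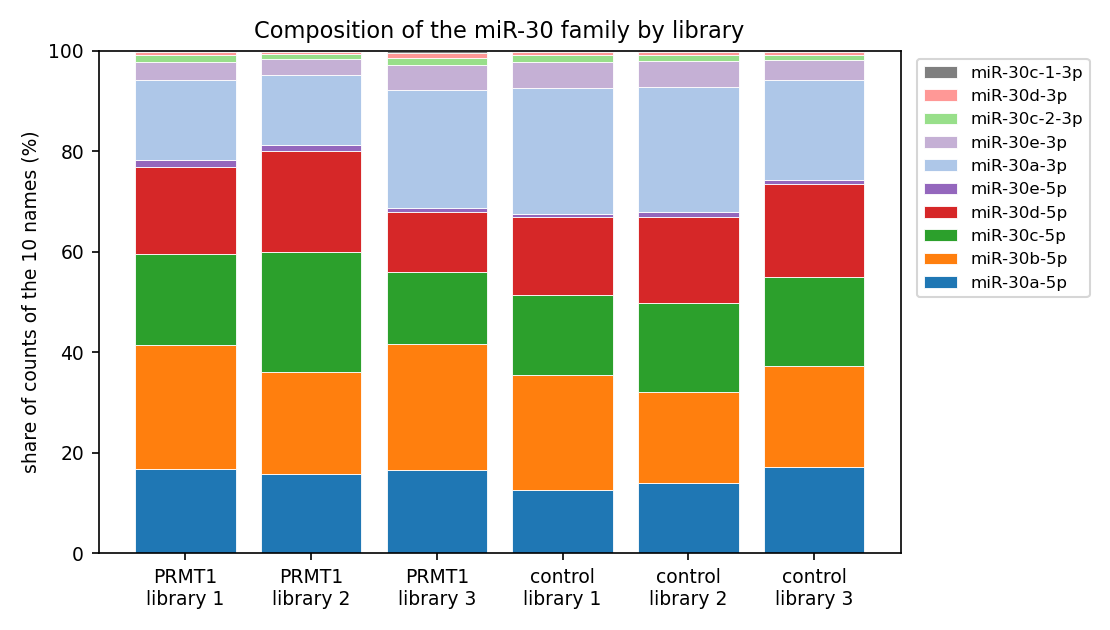
Share of each name in the summed counts of the 10 miR-30 names (%), 1 bar per library. The blue and violet pale segments, miR-30a-3p and miR-30e-3p, are narrowest in PRMT1 libraries 1 and 2.

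No member passed the threshold between PRMT1 and control libraries, an adjusted p of 0.05 from edgeR's quasi-likelihood test with Benjamini-Hochberg adjustment over the 668 names that passed the filter on low counts. All 10 members passed that filter. Adjusted p-values of the members ran from 0.749 to 0.983, and 0 of 10 had an unadjusted p under 0.05. Over all 668 names, 0% were called in either direction and 5.39% had an unadjusted p under 0.05. On the same 668 names limma-voom called 0. DESeq2, run on all 1727 names without that filter, called 4, none of them members. A log2 fold change above 0 was found for 8 members and one below 0 for 2, against 53.9% above 0 over all tested names. The median log2 fold change was 0.24 over the 10 members and 0.043 over all tested names.

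The guide arms had higher means in PRMT1 libraries, and all 5 overlapped between groups. MiR-30b-5p, the most abundant name, was at 963, 906 and 773 CPM in PRMT1 libraries 1 to 3 and at 745, 636 and 797 CPM in control libraries 1 to 3. PRMT1 libraries 1 and 2 lay above all control libraries, and PRMT1 library 3 lay among them. Its log2 fold change was 0.28 (SE 0.21, 95% interval -0.18 to 0.74, adjusted p = 0.789, edgeR), and it was 0.17 without PRMT1 library 1 or without control library 2. MiR-30a-5p was at 654, 702 and 512 CPM in PRMT1 libraries and at 409, 493 and 684 CPM in control libraries. The lowest library was control library 1, and control library 3 lay between PRMT1 libraries 1 and 2. Its log2 fold change was 0.23 (SE 0.26, 95% interval -0.34 to 0.81, adjusted p = 0.869, edgeR), and leaving out control library 1 gave 0.069, PRMT1 library 2 0.11 and control library 3 0.41.

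MiR-30c-5p, which both miR-30c loci encode, was at 699.5, 1067 and 445 CPM in PRMT1 libraries and at 521, 624 and 699 CPM in control libraries. The highest and the lowest of the 6 libraries were both PRMT1 libraries, so the PRMT1 group enclosed the control group. The log2 fold change was 0.26 (SE 0.31, 95% interval -0.44 to 0.96, adjusted p = 0.869, edgeR), and leaving out PRMT1 library 2 gave -0.13, PRMT1 library 3 0.52 and control library 1 0.14. MiR-30d-5p had the same shape, with 679, 894 and 365 CPM in PRMT1 libraries and 503, 605 and 736 CPM in control libraries. Its log2 fold change was 0.071 (SE 0.32, 95% interval -0.66 to 0.80, adjusted p = 0.983, edgeR), and omission of PRMT1 library 1, 2 or 3 moved it to -0.0029, -0.26 or 0.35. Omission of control library 1, 2 or 3 gave -0.066, 0.044 or 0.17.

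MiR-30e-5p was the rarest guide arm by a wide margin, at 54.1, 51.2 and 24.8 CPM in PRMT1 libraries and 18.3, 38.4 and 38.8 CPM in control libraries. It made up 1.45% ± 0.305 of the 5p counts of the family in PRMT1 and 1.25% ± 0.39 in control libraries (SD, n = 3 each). PRMT1 libraries 1 and 2 were the highest, whereas PRMT1 library 3 lay between control library 1 and the others. The log2 fold change was 0.45 (SE 0.38, 95% interval -0.41 to 1.30, adjusted p = 0.800, edgeR), and leaving out PRMT1 library 1, 2 or 3 gave 0.23, 0.29 or 0.72, while leaving out control library 1 gave 0.16. Since miR-30e-5p differs from miR-30a-5p by 1 base, its level depends on how such reads were assigned. The ratio of miR-30a-5p to miR-30e-5p counts ranged from 12.1 to 22.4 over the 6 libraries.

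Summed, which is free of any division of reads among the 5 names, the guide arms were at 3049, 3620 and 2119 CPM in PRMT1 libraries and at 2197, 2396 and 2955 CPM in control libraries. The sum still leaves out the Rfam precursor row described under other observations. That row held 1.74 to 1.94 times the 5p counts in PRMT1 and 1.46 to 2.53 times in control libraries. PRMT1 library 3 was the lowest of all 6 libraries and PRMT1 libraries 1 and 2 the highest. The group means of these CPM values give a log2 ratio of 0.22. In an edgeR refit with the names summed and the TMM factors set anew, the log2 fold change was 0.19 (SE 0.23). It was given no test because the names were chosen. Leaving out PRMT1 library 2 gave 0.010, and leaving out PRMT1 library 3 gave 0.40.

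The 3p arms differed in direction. In PRMT1 libraries miR-30a-3p and miR-30e-3p stood below every control library, miR-30c-1-3p and miR-30c-2-3p stood above every control library, and miR-30d-3p overlapped. Over all 668 tested names, 4.79% lay lower and 5.39% higher in PRMT1 libraries without overlap on the same scale. MiR-30a-3p, in the upper tier with 4 of the 5 guide arms, was at 619, 628 and 729 CPM in PRMT1 libraries and at 819, 876 and 791 CPM in control libraries. PRMT1 library 3 came closest to the control range. Its log2 fold change was -0.33 (SE 0.20, 95% interval -0.77 to 0.11, adjusted p = 0.749, edgeR), and it stayed between -0.42 and -0.31 when any 1 library was left out.

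MiR-30e-3p was at 135, 135 and 149.9 CPM in PRMT1 libraries and at 173, 178 and 156 CPM in control libraries. Here the log2 fold change was -0.27 (SE 0.23, 95% interval -0.78 to 0.24, adjusted p = 0.800, edgeR). The ratio of miR-30a-3p to miR-30e-3p counts was nearly the same everywhere, 4.58 to 5.07 over the 6 libraries, although the hairpins lie on different chromosomes. These names also differ by 1 base and could share reads. Their sum stood at 754, 763 and 879 CPM in PRMT1 libraries and at 992, 1054 and 947 CPM in control libraries. For this sum the group means give a log2 ratio of -0.32, and the refit with summed names gave a log2 fold change of -0.35 (SE 0.19), with no test. PRMT1 library 3 was again the PRMT1 library nearest to control.

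MiR-30c-2-3p was at 55.8, 46.0 and 48.3 CPM in PRMT1 libraries and at 40.1, 44.2 and 42.1 CPM in control libraries. The margin between groups was small, 46.0 against 44.2 CPM at the closest. For miR-30c-2-3p the log2 fold change was 0.25 (SE 0.22, 95% interval -0.24 to 0.73, adjusted p = 0.806, edgeR), and 0.12 without PRMT1 library 1. MiR-30c-1-3p, the rarest member, was at 10.9, 9.37 and 14.4 CPM in PRMT1 libraries and at 8.59, 8.08 and 9.02 CPM in control libraries. PRMT1 library 3 was the highest here, unlike for the guide arms. The log2 fold change was 0.43 (SE 0.28, 95% interval -0.20 to 1.06, adjusted p = 0.773, edgeR), and 0.24 without PRMT1 library 3. MiR-30c-2-3p exceeded miR-30c-1-3p by 3.36 to 5.48 times in every library. MiR-30d-3p was at 23.9, 20.97 and 27.4 CPM in PRMT1 libraries and at 21.1, 22.3 and 20.8 CPM in control libraries, which overlapped (log2 fold change 0.17, SE 0.23, adjusted p = 0.900, edgeR). Leaving out PRMT1 library 3 gave 0.061 for miR-30d-3p, and leaving out control library 3 gave 0.096.

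The separation of the groups depended on the scaling. By library size of known miRNAs alone, 1 member (miR-30c-2-3p) lay higher without overlap and 0 lay lower, where 46 of 668 tested names lay higher and 10 lower. Relative to all counts of the library miR-30a-3p alone did not overlap, lower in PRMT1 libraries, where 28 of 668 tested names lay higher and 28 lower. With miR-21-5p left out of the total, 4 members lay higher (miR-30b-5p, miR-30c-2-3p, miR-30d-3p and miR-30c-1-3p) and miR-30a-3p lower, but that scaling shifted the median log2 ratio of all tested names to 0.15, and 65 of the 668 then lay higher and 13 lower. The direction of each of the 10 mean differences was the same under TMM, library size, all counts and known miRNA counts without miR-21-5p. Composition within the 3p arms needs no scaling. MiR-30a-3p held 73.3%, 74.8% and 75.2% of the summed 3p counts in PRMT1 libraries and 77.1%, 77.6% and 77.6% in control libraries. MiR-30c-2-3p held 6.61%, 5.49% and 4.99% of them in PRMT1 libraries and 3.78%, 3.92% and 4.13% in control libraries. The share of miR-30d-3p was 2.83%, 2.499% and 2.82% in PRMT1 libraries, against 1.99%, 1.98% and 2.04% in control libraries. MiR-30c-1-3p had 1.29%, 1.12% and 1.48% in PRMT1 libraries, against 0.809%, 0.716% and 0.885% in control libraries. The groups did not overlap for these 4 names, which are parts of 1 total and thus not independent. They overlapped for miR-30e-3p at 15.5% to 16.1% in PRMT1 and 15.3% to 16.3% in control libraries. A lower share of miR-30a-3p, the bulk of this total, by itself raises the shares of the rest. MiR-30d-3p overlapped on TMM-scaled CPM. No background over other names exists for shares of this total, so the count of 4 names cannot be read as more than usual. These shares were looked at after the levels were known and were given no test.

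**Figure D3:**
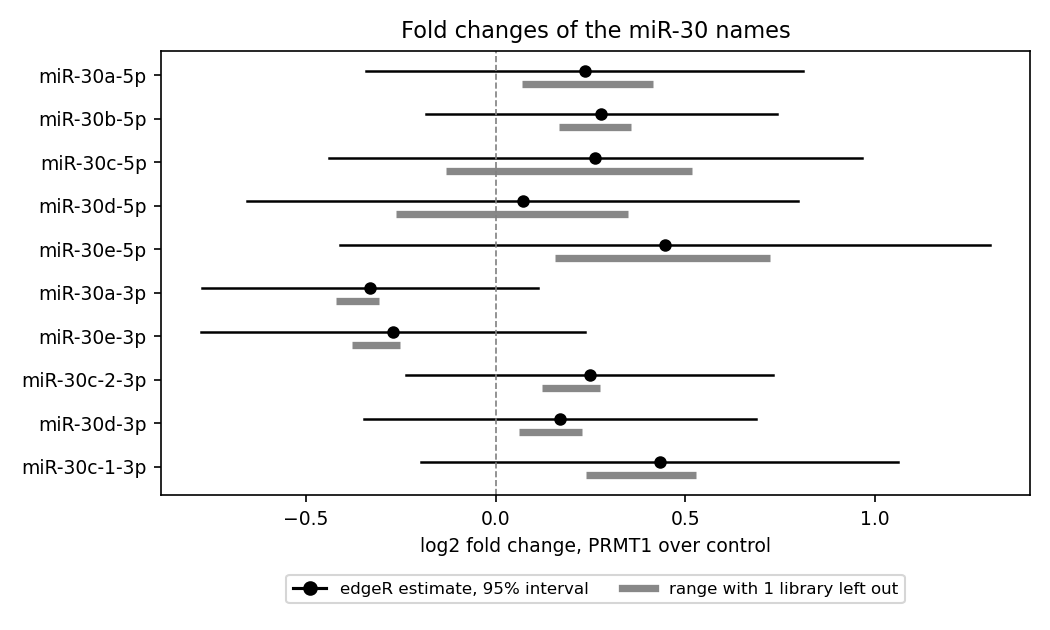
Log2 fold change of each miR-30 name, PRMT1 over control, with the 95% interval of the edgeR fit (black) and the range when any 1 library was left out (grey). All 10 intervals include 0, and the grey ranges of miR-30c-5p and miR-30d-5p cross 0.

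Arm ratios, the 3p counts over the 5p counts within a library, set the hairpins apart by more than 100-fold. For miR-30e most counts fell on the 3p name, with ratios of 2.496, 2.64 and 6.05 in PRMT1 libraries and 9.46, 4.63 and 4.02 in control libraries. MiR-30a had arms of similar level, at 0.947, 0.895 and 1.42 in PRMT1 libraries and 2, 1.78 and 1.16 in control libraries. The 3p arm was the more abundant one of miR-30e in 6 of 6 libraries, and of miR-30a in PRMT1 library 3 and all 3 control libraries. Each arm of miR-30e differs from that of miR-30a by 1 base, so the ratios of both depend on how shared reads were divided. All arm ratios also leave out the reads counted in the Rfam precursor row described under other observations, whose arm is not known. In miR-30c, with both 3p names summed, the ratio was 0.0954, 0.0519 and 0.141 in PRMT1 libraries and 0.0935, 0.0839 and 0.0731 in control libraries. In miR-30d it was 0.0353, 0.0235 and 0.0749 in PRMT1 libraries and 0.0420, 0.0369 and 0.0282 in control libraries. MiR-30b, whose 3p name is not a member and was added to complete the family, had the lowest ratios, 0.0137 to 0.0158 in PRMT1 and 0.0112 to 0.0187 in control libraries.

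Between groups the arm ratios overlapped in every hairpin. The mean log2 ratio in PRMT1 libraries minus that in control libraries was -0.59 in miR-30a (two-sided exact permutation p = 0.2) and -0.71 in miR-30e (exact permutation p = 0.3). In miR-30c the difference was 0.095 (exact permutation p = 0.8) and in miR-30d 0.17 (exact permutation p = 0.9). Adjusted over these 4 ratios, p was 0.6 for miR-30a and miR-30e and 0.9 for the others, and 3 against 3 libraries cannot give an exact permutation p below 0.1. Leaving out PRMT1 library 3 moved the difference to -0.80 in miR-30a, -1.13 in miR-30e, -0.24 in miR-30c and -0.29 in miR-30d. PRMT1 library 3 had the highest ratio of the PRMT1 group in each of these 4 ratios. Summing the arms of miR-30a, miR-30d and miR-30e gave a difference of -0.45 (exact permutation p = 0.3).

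**Figure D4:**
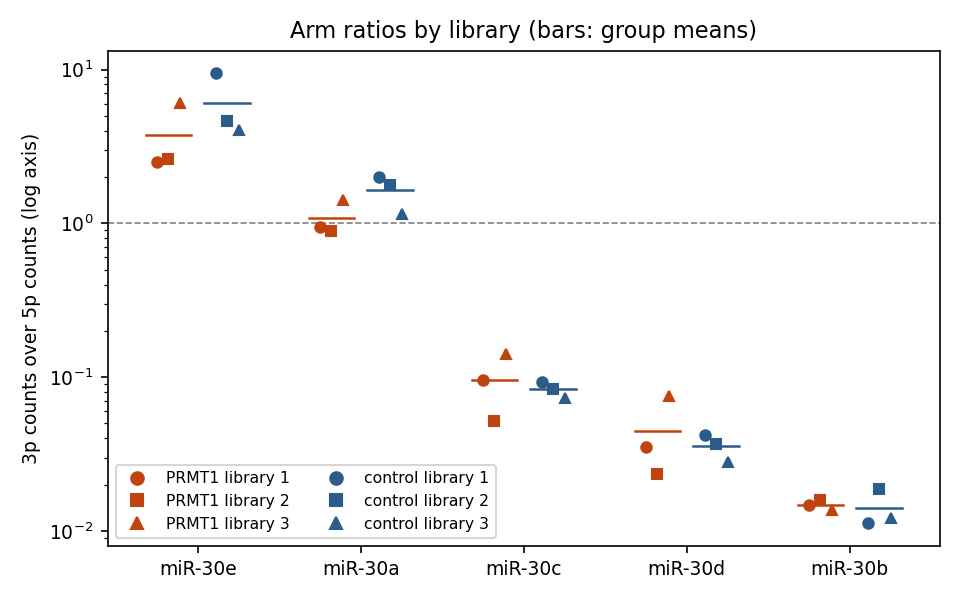
Ratio of 3p to 5p counts (log axis) for each hairpin and library, PRMT1 libraries left of control libraries, short bars at group means (n = 3), dashed line at equal arms. MiR-30e lies above the line in all 6 libraries, while miR-30c, miR-30d and miR-30b lie far below it.

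The coefficient of variation over the 6 libraries, the SD over the mean of the CPM, had a median of 29.3% over the 5 guide arms and 12.1% over the 5 3p arms. It was 20.9% for miR-30a-5p, 14.6% for miR-30b-5p, 32.0% for miR-30c-5p, 29.3% for miR-30d-5p and 37.6% for miR-30e-5p. Among the 3p arms it was 14.1% for miR-30a-3p, 11.8% for miR-30e-3p, 12.1% for miR-30c-2-3p, 11.2% for miR-30d-3p and 23.1% for miR-30c-1-3p. The median was 27.7% over all 668 tested names and 20.7% over the 159 of them with at least 100 CPM. MiR-30e-5p, miR-30c-2-3p, miR-30d-3p and miR-30c-1-3p had means below 100 CPM. Inside the PRMT1 group the coefficient was 42.4% for miR-30c-5p and 41.2% for miR-30d-5p, and inside the control group 14.6% and 18.9% for the same names. PRMT1 library 3 held the lowest PRMT1 value of all 5 guide arms and the highest PRMT1 value of 4 of 5 3p arms, miR-30c-2-3p being the exception. Without PRMT1 library 3, the log2 fold changes of the 5 guide arms were 0.35 for miR-30a-5p, 0.36 for miR-30b-5p, 0.52 for miR-30c-5p, 0.35 for miR-30d-5p and 0.72 for miR-30e-5p, each above its value over all libraries. Without PRMT1 library 2 they were 0.11, 0.22, -0.13, -0.26 and 0.29 in the same order, each below it, and none passed the threshold in either case.

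**Figure D5:**
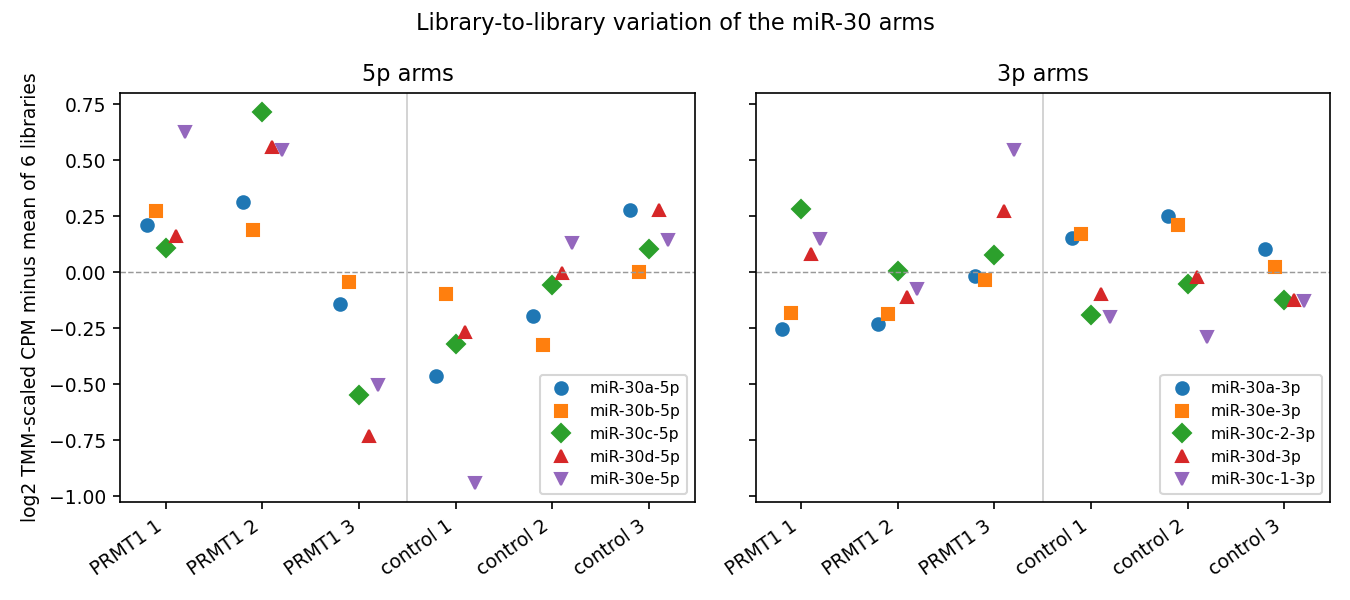
Log2 TMM-scaled CPM of each miR-30 name minus its mean over the 6 libraries, for 5p arms (left) and 3p arms (right), with PRMT1 libraries left of control libraries. All 5p arms are below 0 in PRMT1 library 3, miR-30b-5p only slightly at -0.044, and all are below 0 in control library 1 too. MiR-30a-3p and miR-30e-3p are below 0 in all 3 PRMT1 libraries and above it in all 3 control libraries.

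Outside the family, the names whose course over the 6 libraries was most like that of the summed guide arms were miR-935, miR-28-5p, miR-193b-3p, miR-324-3p and miR-425-5p. Likeness was the root mean square difference of the centred log2 CPM, 0.13 for miR-935 and 0.18 to 0.20 for the others, against a median of 0.41 over 152 names of at least 100 CPM. MiR-935 was at 449, 546 and 327 CPM in PRMT1 libraries and at 385, 381 and 557 CPM in control libraries. Like the summed guide arms, it was lowest in PRMT1 library 3, a likeness that follows from how it was picked. MiR-935 was highest in control library 3, whereas the guide sum was highest in PRMT1 library 2. For miR-935 the log2 fold change was -0.00066 (SE 0.27, adjusted p = 0.9996, edgeR), and none of the 5 passed the threshold. A further 14 miRNAs known to restrain the epithelial-mesenchymal transition or fibrosis (the miR-200 family, miR-205, miR-203a, miR-29, miR-26a, miR-101, miR-133a and miR-34a) were set beside the family. Of these, 0 of 14 passed in either direction, 9 lay above 0 and 5 below, and the median log2 fold change was 0.15, against 0.043 over all tested names. For miR-26a-5p, the most abundant of them, it was -0.063 (SE 0.15, adjusted p = 0.961, edgeR). Over the 14 names the log2 fold change ran from -0.28 to 0.72. Of the 14, 1 had an unadjusted p under 0.05 (edgeR), against 5.39% of all tested names.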

How the data were processed

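Reads were sequenced and filtered by BGI, per the series' design text. Per the submitters' processing notes, HISAT, Bowtie2, RSEM and the build GRCh37.p13 were used, with no role or version given. How reads matching several names were divided is not stated there. The labels' library protocol is one for messenger RNA, although the tables hold small RNAs. The deposited counts are whole reads per feature, not normalised, per the file headers. The TPM column, also deposited, is each count per library total on the CPM scale to within 0.005, and was not used further. Absent rows were taken as 0.

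Rows of class mature (1727 names) were filtered with filterByExpr (668 kept), scaled by TMM and tested with edgeR 4.0.16 in R 4.3.3 (quasi-likelihood, robust), without a block. The SE of a log2 fold change is its size over the root of F. The test was tried on simulated data. Arm ratios used a pseudocount of 0.5 and exact permutation tests (scipy 1.17.1). DESeq2 1.42.0 and limma-voom (limma 3.58.1) were alternatives. Sequences and positions are from RefSeq and GENCODE on GRCh38, which is not the authors' build. Members, lists and tests were chosen with earlier results of these data known. Names beyond the 10 members were miR-30b-3p, miR-21-5p, the 5 names most like the guide sum and the lists, and miR-26a-5p was picked from its list for its level.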

Additional observations from a re-analysis of the deposited data

How the results depend on the processing

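No member passed the threshold under any setting tried. The count of known miRNAs past the threshold, 0 with edgeR, was 9 with edgeR without a filter on low counts. It was 4 with DESeq2, also run without that filter, and 1 with the replicate number as a block. None of these was a member, and the count was 0 to 1 when a library was left out. The cause was not tested. The labels state no block behind the replicate numbers. Libraries of 1 number deviated from their group means with correlations of -0.091, 0.20 and -0.12, against -0.15 to 0.24 for other pairs. With 3 libraries per group, centred on their own mean, these values cannot decide whether libraries of 1 number share a block. With the block no fold change of a member changed sign. For miR-30d-5p the log2 fold change was -0.0020 with limma-voom, and -0.26 to 0.35 when a library was left out (below 0 without PRMT1 library 1 or 2 or control library 1). That of miR-30c-5p was -0.13 to 0.52. The other 8 names kept their sign under all 9 other settings and all 6 omissions. The log2 ratio of the family share, 0.14, was -0.032 to 0.32 over the omissions and -0.22 for the 3p arms alone, a split added after the data were seen. Over the omissions, the difference in log2 arm ratio ran from -0.24 to 0.48 in miR-30c, -0.29 to 0.54 in miR-30d, -0.035 to 0.33 in miR-30b (added later), -0.82 to -0.43 in miR-30a and -1.13 to -0.34 in miR-30e. Of the list of 14 miRNAs, 0 passed under each scaling and omission. The 95% intervals of the members' log2 fold changes were 0.89 to 1.71 wide, which limits what 3 libraries per group can resolve.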

Other observations

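Apart from the mature names, the tables hold a row for the Rfam precursor family of mir-30, with 90849, 76626 and 45767 counts in PRMT1 libraries 1 to 3 and 62935, 75643 and 55480 counts in control libraries 1 to 3. These were more than the summed counts of the 10 mature names in every library, 1.52, 1.41 and 1.24 times in PRMT1 libraries and 1.42, 1.72 and 1.09 times in control libraries. Scaled to 1000000 counts of all classes, the row stood at 2887 ± 937 in PRMT1 and 2632 ± 356 in control libraries (SD, n = 3 each), with overlapping groups, and PRMT1 library 3 was the lowest, as for the summed guide arms. Which reads went to this row and which to the mature names was not given in the sources used here.

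MiR-30b-3p, the arm of the family that is not a member, was at 14.1, 14.3 and 10.6 CPM in PRMT1 libraries and at 8.37, 11.9 and 9.65 CPM in control libraries. Its log2 fold change was 0.38 (SE 0.28, adjusted p = 0.789, edgeR), and the groups overlapped.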
